A study of Mus musculus with 32 samples.

Results

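The 41 genes described here encode proteins of megakaryocytes and platelets, and they were followed through 24 RNA-seq libraries of sorted mouse bone marrow stem and progenitor cells. They were chosen by name from a list, and each of the 41 names matched 1 of the 41388 genes in the count table. By role the list holds 10 adhesion receptors, 7 granule contents, 6 receptors for agonists such as thrombin and ADP, 4 enzymes and transporters, 6 cytoskeletal proteins or their partners and 8 signalling and trafficking proteins.

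Megakaryocytes are the large marrow cells that shed platelets. They load platelets with granules full of chemokines, growth factors and clotting proteins, and they coat them with receptors that bind collagen, fibrinogen and von Willebrand factor. Blood stem cells carry low levels of RNA for some of these proteins, and a fraction of stem cells is known to give rise mainly to platelets. Jarid2, the gene deleted in the study, encodes a partner of the PRC2 complex that places the repressive H3K27me3 mark. Jak2V617F is an activated form of the kinase that carries the thrombopoietin signal, and it is found in myeloproliferative neoplasms with excess platelets.

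The mice were C57BL/6, and 2 cohorts were sequenced. In the Vav-Cre cohort, in which the recombinase is active in blood cells from early development, the mice were 8 weeks old and were either wild-type controls or Jarid2-KO, with 3 libraries in each of 4 groups. In the Mx1-Cre cohort, in which the recombinase is switched on by the interferon inducer pIpC, mice labelled as 10 weeks old were taken 2 months after pIpC as controls, as Jak2V617F or as Jak2V617F with Jarid2KO (the double mutant below), with 2 libraries in each of 6 groups. The design text of the series names a Jarid2-KO group without Jak2V617F where the sample labels give Jak2V617F alone, the labels were followed, and the genotype of those 4 libraries is uncertain to that extent. Both sorted populations were lineage-negative, cKit+, Sca1+ and CD48-, with haematopoietic stem cells (HSC) taken as CD150+ and multipotent progenitors (MPP) as CD150-. Each library came from pooled mice. The labels give the pools of a group as separate replicates, and every p-value here is set against pool-to-pool spread. The cohorts were fitted separately.

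Total counts ran from 10473535 to 27232379 in the Vav-Cre libraries and from 7852483 to 20724168 in the Mx1-Cre libraries, so 3 counts, the level used as a floor, corresponded to 0.11 to 0.286 and to 0.145 to 0.382 CPM (counts of a gene scaled to a common library total). Counts of whole Jarid2 did not fall with its deletion. Jarid2 stood at 80.2 to 144 CPM in Jarid2-KO HSC against 77.6 to 109 CPM in control HSC, and at 107 to 129 CPM in Jarid2-KO MPP against 91.8 to 126 CPM in control MPP. In the Mx1-Cre cohort it stood at 68.3 to 169 CPM in double-mutant HSC, at 52.6 to 93.2 CPM in double-mutant MPP and at 45.6 to 69.1 CPM elsewhere. The labels do not name the deleted exons, and a count over the whole gene does not check an exon deletion. In the Vav-Cre cohort the gate was visible in Slamf1, which encodes CD150, at 57.4 to 95.5 CPM in HSC and 2.19 to 14.1 CPM in MPP.

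Windows of 250 bases before the RefSeq start (RefSeq, GRCm38.p6, the build known as mm10) were found for 34 of the 41 genes. Windows of 4 genes that the HSC and MPP comparisons below turn on are shown 5′ to 3′ in the direction of the gene. Capitals mark words bound by families of megakaryocyte transcription factors: AGATAA or TGATAA for GATA factors, AGGAAG or CGGAAG for ETS factors and TGTGGT for RUNX factors, each on either strand. They belong to Cavin2 (a coat protein of caveolae, chr1:51288876-51289125, plus strand), Mmrn1 (multimerin, a granule protein that binds clotting factor V, chr6:60944067-60944316, plus strand), Gp9 (a subunit of the von Willebrand factor receptor, chr6:87777820-87778069, plus strand) and Selp (P-selectin, a granule membrane protein shown on activated platelets, chr1:164115014-164115263, plus strand).
Cavin2: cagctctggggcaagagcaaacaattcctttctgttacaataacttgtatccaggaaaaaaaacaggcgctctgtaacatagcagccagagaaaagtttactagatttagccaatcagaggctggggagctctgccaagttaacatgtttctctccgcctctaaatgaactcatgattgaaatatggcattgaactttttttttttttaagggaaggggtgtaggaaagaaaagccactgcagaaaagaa
Mmrn1: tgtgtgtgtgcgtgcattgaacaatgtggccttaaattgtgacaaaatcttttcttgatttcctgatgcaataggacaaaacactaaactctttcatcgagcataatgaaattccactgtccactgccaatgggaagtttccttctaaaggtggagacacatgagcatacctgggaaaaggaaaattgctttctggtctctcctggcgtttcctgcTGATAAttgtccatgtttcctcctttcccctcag
Gp9: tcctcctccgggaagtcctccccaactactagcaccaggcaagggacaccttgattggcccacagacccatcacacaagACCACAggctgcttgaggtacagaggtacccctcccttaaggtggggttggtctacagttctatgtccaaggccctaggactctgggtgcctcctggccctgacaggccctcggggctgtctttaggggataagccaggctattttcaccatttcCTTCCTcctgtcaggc
Selp: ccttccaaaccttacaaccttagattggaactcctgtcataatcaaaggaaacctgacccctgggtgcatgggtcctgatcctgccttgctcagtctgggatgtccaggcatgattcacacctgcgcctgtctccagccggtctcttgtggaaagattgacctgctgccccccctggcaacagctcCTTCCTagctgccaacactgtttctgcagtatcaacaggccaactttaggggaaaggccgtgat
The Cavin2 window held none of these words. Mmrn1 had a GATA word 34 bases before the RefSeq start. Gp9 had an ETS word at 16 and a RUNX word at 171 bases before its start, and Selp had an ETS word at 64. The RefSeq start used for Mmrn1 lies inside the counted gene, which begins at base 60924976 of chr6. Its window is therefore not upstream of the whole counted gene. Over the 35 windows of the 34 genes, 8 (22.9%) held a GATA word against 16.6% of 32851 promoter windows of all genes. An ETS word was present in 17 (48.6%) against 39.2%, and a RUNX word in 4 (11.4%) against 14.0%. Both a GATA and an ETS word were present in 4 windows (11.4%, of Gp1ba, Gp5, F2rl2 and F2rl3) against 5.49%. A match is a run of letters and not a measured binding site.

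In the sorted cells of the Vav-Cre cohort the 41 genes together made up 4583 to 5060 CPM in the 6 HSC libraries and 3137 to 3979 CPM in the 6 MPP libraries, and these ranges did not overlap. Levels differed widely between the genes. Per length, as RPKM (CPM divided by the gene's length in kilobases), control HSC were led by Rgs18, a brake on G protein signalling in platelets, at 784 ± 161 RPKM (SD, n = 3). Next came Fermt3, the integrin activator kindlin, at 263 ± 53.0 RPKM, then Mmrn1 at 145 ± 38.2 RPKM, the tetraspanin gene Cd9 at 119.5 ± 26.5 RPKM and the platelet chemokine gene Pf4 at 106 ± 14.8 RPKM. Mmrn1, Cd9 and Pf4 lay within their spread of each other. Gp9, at 70.0 ± 9.36 RPKM, was the highest of the adhesion receptors and lay within its spread of Gng11, a G protein gamma subunit, at 66.3 ± 8.69 RPKM. The integrin subunit Itga2b, often used to mark the lineage, was 19th at 10.1 ± 3.87 RPKM.

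Some of the genes were at or near 0, but others typical of platelets, such as Pf4, Gp9 and Itga2b, were not. Of the 41 genes, 37 passed the filter on low counts in the Vav-Cre cohort. The other 4 were Gp1bb, a subunit of the von Willebrand factor receptor (at most 16 counts in a library), Gp6, the collagen receptor (at most 10 counts, and 0 in 10 of 12 libraries), Slc6a4, the serotonin transporter (at most 6 counts) and Myl9, a myosin light chain (at most 14 counts). Gp1bb shares part of its exons with Sept5 on the same strand, so its counts are uncertain. These genes get no test in this cohort.

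**Figure D1:**
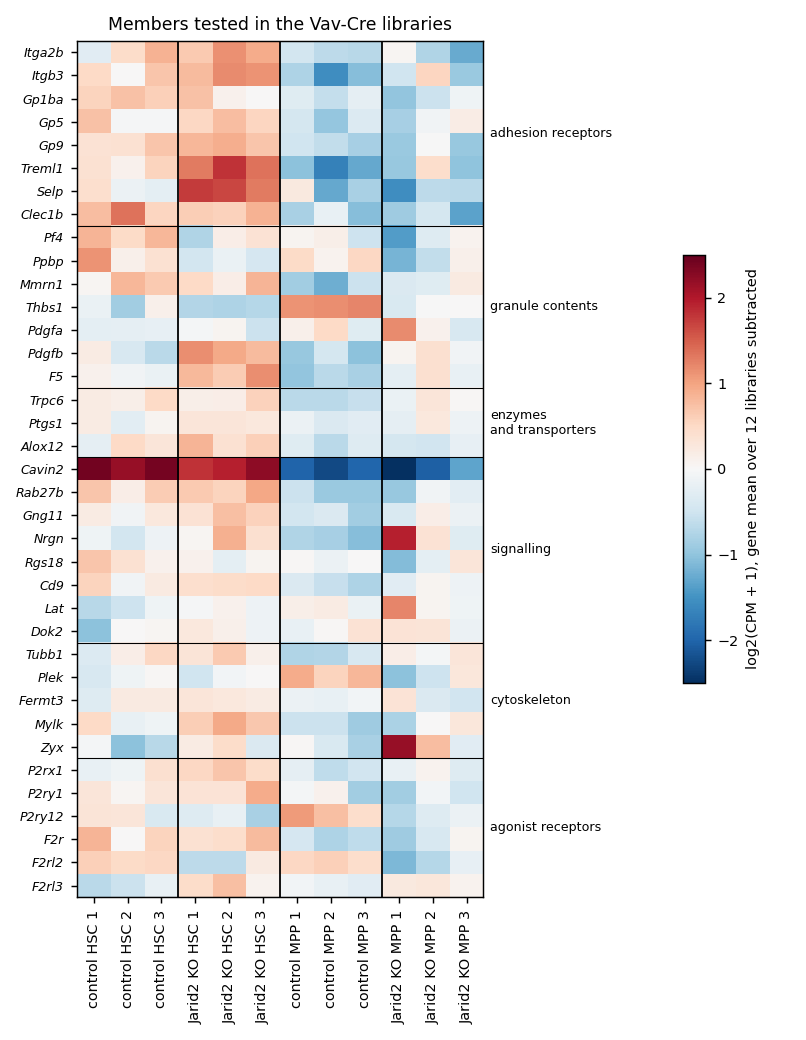
Heat map of 37 genes (rows) in the 12 Vav-Cre libraries (columns); colour is log2(CPM + 1) after each gene's mean over the 12 libraries is subtracted. Most rows are on average higher in HSC than in MPP of the same genotype, though many are not so in every library, while Thbs1 is highest in the control MPP libraries.

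In control mice the genes were, on the whole, lower in MPP than in HSC. By edgeR's quasi-likelihood test with Benjamini-Hochberg adjustment over 15818 genes, 9 of the 37 fell and 1 rose at an adjusted p under 0.05, where 1.17% of all genes were called (0.657% lower and 0.512% higher). At an unadjusted p under 0.05, 22 of the 37 passed, against 8.44% of all genes. The median log2 fold change was -0.76 for the 37 and -0.02 for all genes, and 29 of the 37 values were negative. On CPM scaled by edgeR's TMM factors, which serve for all such counts, the 3 libraries of MPP and the 3 of HSC did not overlap for 28 of the 37 genes, 24 of them lower in MPP, where the same held for 18.9% of all genes. In bulk samples, fewer cells of a type and less RNA per cell cannot be told apart.

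Cavin2 had the widest gap. Control HSC held 92.6, 78.3 and 91.6 CPM and control MPP 3.40, 2.68 and 3.44 CPM. Every HSC library was far above every MPP library, and Cavin2 fell by 4.83 on the log2 scale (SE 0.49, adjusted p = 0.000132). Among the other signalling and trafficking genes, Rab27b, a GTPase of granule transport, stood at 40.7, 27.6 and 38.6 CPM in HSC and at 16.7, 12.6 and 12.5 CPM in MPP. It fell by 1.41 on the log2 scale (SE 0.25, adjusted p = 0.0150). Cd9 stood at 301, 193 and 239 CPM in HSC and 159, 137 and 120.2 CPM in MPP, again without overlap, and fell by 0.87 (SE 0.18, adjusted p = 0.0266). The other 5 tested genes of this group (Gng11, Lat, Nrgn, Rgs18 and Dok2) did not pass.

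Of the 8 tested adhesion receptors 3 fell, and all 8 log2 fold changes were negative, with a median of -1.31. Gp9 stood at 51.7, 53.0 and 65.5 CPM in HSC against 28.3, 25.9 and 22.1 CPM in MPP and fell by 1.22 (SE 0.24, adjusted p = 0.0212). Itgb3, the beta subunit of the platelet fibrinogen receptor, stood at 29.9, 20.8 and 34.2 CPM against 11.7, 6.40 and 9.44 CPM and fell by 1.67 (SE 0.35, adjusted p = 0.0314). Both genes separated the populations without overlap. Treml1, a receptor of the granule membrane, was rarer, at 5.07, 4.07 and 5.91 CPM against 1.31, 0.446 and 0.926 CPM, and fell by 2.52 (SE 0.53, adjusted p = 0.0332). Clec1b, the podoplanin receptor, narrowly missed a call at -2.27 (SE 0.53, adjusted p = 0.0538), and Itga2b at -1.11 (SE 0.33, adjusted p = 0.176) did not pass either. Selp overlapped between the populations, with 35.2, 23.5 and 21.8 CPM in HSC and 31.0, 10.2 and 14.5 CPM in MPP.

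The granule contents split. Mmrn1 stood at 604, 1036 and 921 CPM in HSC and at 319.7, 248 and 403 CPM in MPP, without overlap, and fell by 1.46 (SE 0.28, adjusted p = 0.0209). Thbs1, which encodes thrombospondin, was the 1 gene that rose. It stood at 7.94, 4.48 and 9.88 CPM in HSC and at 21.0, 21.4 and 22.4 CPM in MPP (log2 fold change 1.49, SE 0.29, adjusted p = 0.0219). Thrombospondin is also made by stromal and endothelial cells and by monocytes. Markers of granulocytes and monocytes made up 0.129% to 0.929% of counts in the 6 HSC libraries and 0.494% to 2.45% in the 6 MPP libraries of the cohort, and all 14 of their log2 fold changes in controls were positive (median 1.15, none of them called, in control MPP against HSC). Their part in the result was not tested. The chemokine genes Pf4 and Ppbp, at -0.88 (SE 0.35) and -0.30 (SE 0.42), and Pdgfb, Pdgfa and F5 did not pass.

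Trpc6, a cation channel, stood at 57.7, 55.6 and 70.7 CPM in control HSC and 31.0, 31.2 and 33.5 CPM in control MPP, and fell by 1.00 (SE 0.19, adjusted p = 0.0195). F2r, the thrombin receptor gene that human platelets use, stood at 126, 70.2 and 102 CPM against 51.5, 40.2 and 44.6 CPM and fell by 1.18 (SE 0.26, adjusted p = 0.0363). Neither gene overlapped between the populations. F2rl3, the main thrombin receptor gene of mouse platelets, was at similar levels in both, 30.6 to 43.6 CPM in HSC and 40.5 to 47.0 CPM in MPP. None of the 5 cytoskeletal genes tested passed. Fermt3, the most abundant of them per length, stood at 521, 759.9 and 758 CPM in control HSC, at 589.8, 573 and 624 CPM in control MPP, at 803, 781 and 756 CPM in Jarid2-KO HSC and at 831, 509.8 and 467 CPM in Jarid2-KO MPP, and its ranges overlapped between the populations of each genotype. Plek, a protein kinase C substrate, was higher in every control MPP library (258, 198 and 241 CPM) than in every control HSC library (103, 126 and 138 CPM), at 0.87 on the log2 scale (SE 0.28, adjusted p = 0.222).

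**Figure D2:**
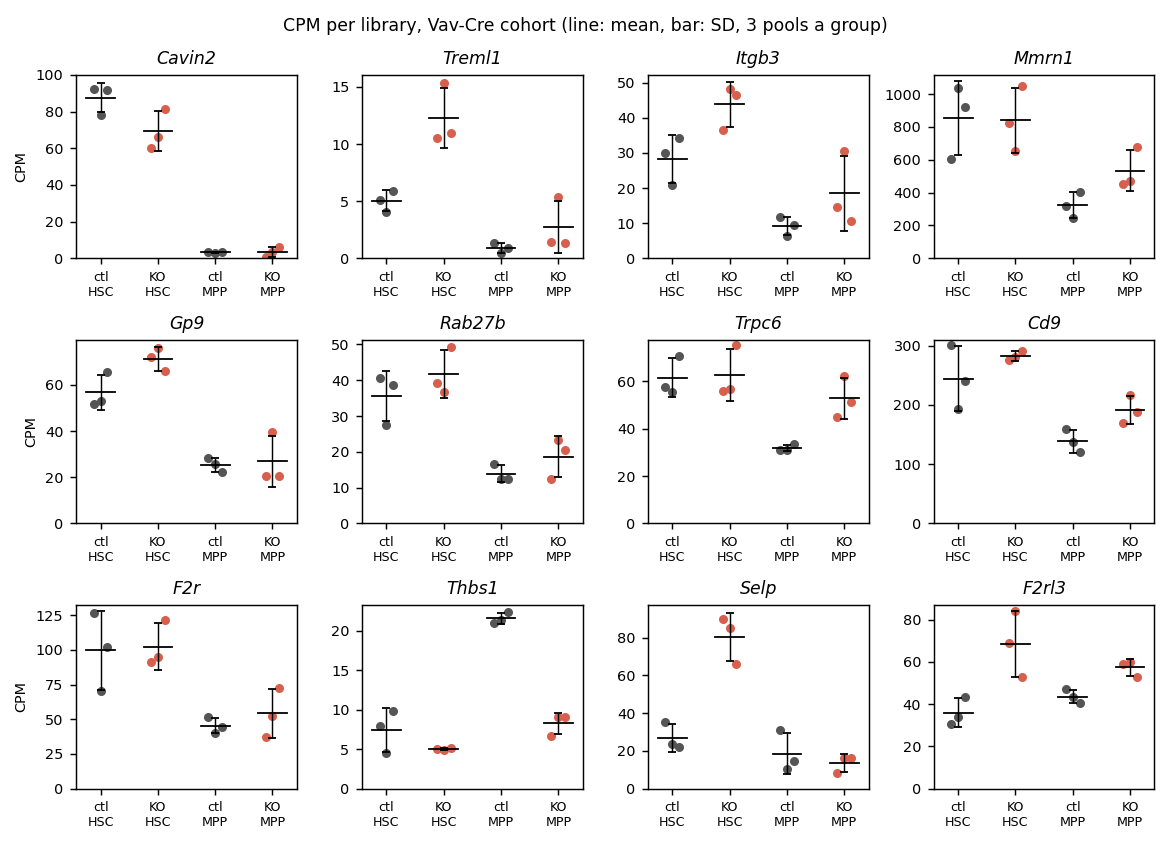
CPM of 12 genes in each Vav-Cre library (points), with the mean (line) and SD (bar) of each group of 3 libraries. Cavin2 is at 59.98 to 92.6 CPM in the 6 HSC libraries and at 0.689 to 6.02 CPM in the 6 MPP libraries, whereas Thbs1 is highest in the control MPP libraries.

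These calls rested on 3 libraries a side. With any 1 of the 6 control libraries left out, 1 to 4 of the 37 genes were called, among 61 to 102 genes in all: 4 without HSC 1, 3 without HSC 2, 2 without HSC 3, 2 without MPP 1, 1 without MPP 2 and 2 without MPP 3. Cavin2 was called each time, and its log2 fold change stayed between -4.93 and -4.70 over all 11 alternative settings run. The other 9 were each lost in at least 1 of them.

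In Jarid2-KO mice the same comparison of MPP with HSC called 3 of the 37 genes, all lower in MPP, where 0.525% of all genes were called (0.348% lower). The median log2 fold change was -0.64 for the 37 and 0.05 for all genes, 21 genes passed at an unadjusted p under 0.05 (10.8% of all genes did), and all 8 tested adhesion receptors were negative with a median of -1.44. Cavin2 stood at 59.98, 66.4 and 81.3 CPM in HSC and at 0.689, 3.23 and 6.02 CPM in MPP (log2 fold change -4.42, SE 0.48, adjusted p = 0.000596). Selp stood at 90.1, 85.2 and 66.2 CPM in HSC and 8.21, 16.4 and 16.0 CPM in MPP. Every HSC library was at least 66.2 CPM and no MPP library was above 16.4 CPM, and Selp fell by 2.57 (SE 0.39, adjusted p = 0.00652). In controls the same value was -0.60 (SE 0.37, adjusted p = 0.823). Gp9 stood at 72.2, 76.0 and 65.8 CPM against 20.6, 39.8 and 20.4 CPM and fell by 1.41 (SE 0.24, adjusted p = 0.0128). Cavin2 and Selp were called in 11 of 11 alternative settings, Gp9 in 8 of 11, and leaving out 1 library gave 2 to 5 genes, among 36 to 180 in all. Markers of granulocytes and monocytes were positive in 13 of 14 cases here (median 1.26).

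Several genes called in controls had the same order of levels in Jarid2-KO mice without a call. Rab27b stood at 39.2, 36.8 and 49.4 CPM in Jarid2-KO HSC and at 12.3, 23.2 and 20.4 CPM in Jarid2-KO MPP (-1.16, adjusted p = 0.0643). Itgb3 stood at 36.6, 48.3 and 46.6 CPM against 14.5, 30.6 and 10.5 CPM, and Treml1 at 10.6, 15.3 and 10.9 CPM against 1.44, 5.35 and 1.34 CPM. In these 3 genes every HSC library was above every MPP library. Cd9 stood at 275, 281 and 290.3 CPM against 169, 216 and 189 CPM, and F2r at 90.9, 94.5 and 122 CPM against 37.2, 52.7 and 72.7 CPM, also without overlap. Mmrn1, at 823, 654 and 1048 CPM against 449.5, 473 and 677 CPM, and Trpc6, at 55.8, 56.5 and 75.2 CPM against 44.9, 62.0 and 51.4 CPM, did overlap. Thbs1 was the exception to the direction, with 5.03, 4.89 and 5.11 CPM in Jarid2-KO HSC below every Jarid2-KO MPP library (6.71, 9.02 and 9.07 CPM).

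The deletion itself was compared within each population. In HSC none of the 37 genes was called between Jarid2-KO and control by edgeR, where 0.569% of all genes were (0.316% lower), while 10 passed at an unadjusted p under 0.05 (17.0% of all genes did) and DESeq2 called 4 (1.98% of all genes). The median log2 fold change was 0.23 against -0.03 for all genes. The 3 libraries a side did not overlap for 15 of the 37 (26.6% of all genes), 11 higher and 4 lower in Jarid2-KO. Selp, with 90.1, 85.2 and 66.2 CPM in Jarid2-KO HSC and 35.2, 23.5 and 21.8 CPM in control HSC, was one of the 11, at 1.52 (SE 0.37, adjusted p = 0.0867). F2rl3 stood at 68.8, 84.1 and 53.0 CPM in Jarid2-KO HSC and 30.6, 33.9 and 43.6 CPM in control HSC, also without overlap, at 0.87 (SE 0.21, adjusted p = 0.0818).

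Pdgfb, a growth factor stored in granules, stood at 17.2, 14.6 and 12.9 CPM in Jarid2-KO HSC against 8.38, 5.12 and 4.08 CPM (log2 fold change 1.29, SE 0.34, adjusted p = 0.112). F5, clotting factor V, stood at 22.9, 20.1 and 29.3 CPM against 13.6, 11.8 and 11.1 CPM (0.91, SE 0.27, adjusted p = 0.137). Neither overlapped with the controls, and neither passed. Below the controls lay F2rl2, a thrombin receptor of mouse platelets, at 5.38, 5.35 and 10.8 CPM against 14.1, 12.9 and 13.3 CPM (-0.99, SE 0.34), the chemokine genes Ppbp at 3.79 to 4.81 CPM against 6.11 to 13.2 CPM and Pf4 at 21.6 to 47.9 CPM against 51.9 to 67.2 CPM. Cavin2 was the fourth of the 4, by the scaled values, with 59.98 to 81.3 CPM against 78.3 to 92.6 CPM before that scaling. DESeq2 called Selp, F2rl3, Pdgfb and F5, and edgeR without the filter on low counts called the first 3 of these (2.55% of all genes). The 14 granulocyte and monocyte markers were all positive in this comparison (median 1.25, none called by edgeR). Their part in these values was not tested.

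In MPP 1 of the 37 genes was called, where 0.948% of all genes were (0.436% lower and 0.512% higher). Thbs1 stood at 6.71, 9.02 and 9.07 CPM in Jarid2-KO and at 21.0, 21.4 and 22.4 CPM in control MPP. The groups did not overlap, and Thbs1 fell by 1.39 (SE 0.29, adjusted p = 0.0405). It was called in 4 of 11 alternative settings, with log2 fold changes between -1.47 and -1.27, and the call was lost without control MPP 1, 2 or 3, or Jarid2-KO MPP 1 or 2. The median log2 fold change was 0.25 for the 37 and 0.02 for all genes, and 14 of the 37 did not overlap (22.0% of all genes), 10 higher and 4 lower. Plek stood at 65.7, 94.0 and 165 CPM against 258, 198 and 241 CPM (-1.10, SE 0.28, adjusted p = 0.0780). Trpc6 stood at 44.9, 62.0 and 51.4 CPM against 31.0, 31.2 and 33.5 CPM (0.72, SE 0.19, adjusted p = 0.0827). Neither overlapped with the controls.

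In Jarid2-KO MPP, 1 library (replicate 1) was unlike the other 2. It held 411 CPM of Zyx (zyxin, a focal adhesion protein) against 154 and 73.4 CPM in the other Jarid2-KO MPP libraries, 99.8 CPM of Nrgn (neurogranin, which binds calmodulin) against 32.8 and 20.2 CPM, and 143 CPM of Lat (an adaptor of the collagen receptor pathway) against 64.1 and 56.4 CPM. It also had the lowest mitochondrial share of the cohort, 0.559%, and the highest share of granulocyte and monocyte markers, 2.45%. Across the comparison 12 of 14 of those markers were positive (median 1.20, none called), and of 12 stromal and endothelial genes 2 were called higher and 1 lower. Their part was not tested. Nrgn was at 1.96 (SE 0.46, adjusted p = 0.0595) and Zyx at 1.62 (SE 0.48, adjusted p = 0.104). Without Jarid2-KO MPP replicate 3, 10 of the 37 were called (F5, Thbs1, Ppbp, Zyx, Trpc6, Nrgn, Plek, Itgb3, F2rl2 and Treml1), but so were 1512 of 16752 genes in all. Without replicate 2 Nrgn was the 1 member called, with 114 genes in all.

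**Figure D3:**
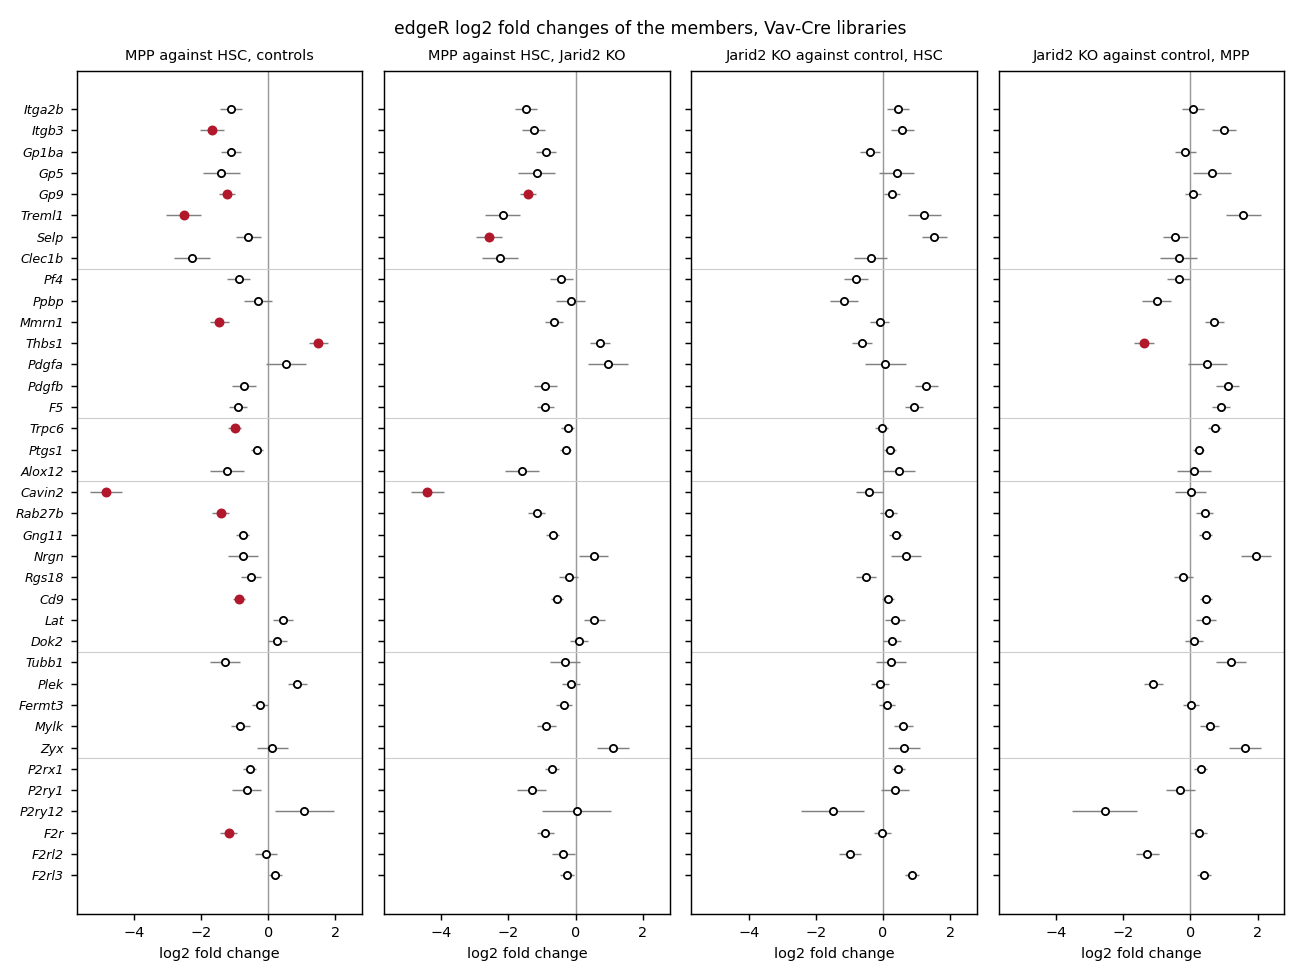
Log2 fold change ± SE of 37 genes in 4 comparisons of the Vav-Cre cohort; filled red points have an adjusted p under 0.05 by edgeR's quasi-likelihood test. The calls are 10 genes between control MPP and HSC, 3 between Jarid2-KO MPP and HSC, 0 for Jarid2-KO in HSC and 1, Thbs1, for Jarid2-KO in MPP.

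The difference between the deletion's effect in MPP and in HSC was tested as an interaction. No gene of the whole table was called by edgeR (0.0% of all genes), 3 of the 37 passed at an unadjusted p under 0.05 (2.65% of all genes did), and DESeq2 called none of the 37. Selp was at -1.98 (SE 0.52, adjusted p = 1.00), from log2 fold changes of 1.52 in HSC and -0.46 in MPP, and Trpc6 at 0.76 (SE 0.27). The difference in Selp between the populations was therefore not past the threshold, though edgeR without the low-count filter called it (0.228% of all genes).

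Before the Mx1-Cre results, the libraries were set against their labels. The 8 control and Jak2V617F libraries held little RNA of Procr, a stem cell marker outside the stated gate, and of Slamf1. Procr stood at 0.0653 to 8.89 CPM there, against 25.8 and 74.4 CPM in the HSC libraries of the double mutant. Slamf1 stood at 0.196 to 12.7 CPM, against 30.8 and 124 CPM. The MPP libraries among the 8 were sorted as CD150-, so low Slamf1 is no mismatch there. A list of 10 sort gate and stem cell genes overlapped between the genotypes. It took 0.0529% to 0.121% of counts in the 8 libraries. For the double mutant its share ran from 0.0996% to 0.246% (HSC) and from 0.092% to 0.191% (MPP). Granulocyte and monocyte markers took 1.93% to 8.21% of counts in the 8 control and Jak2V617F libraries. They took 0.310% to 0.538% in HSC of the double mutant and 0.384% to 0.689% in its MPP. A double mutant therefore differed from the other genotypes in these markers too, and for the genes below the genotype and this difference cannot be told apart. Heart muscle genes took 6.38% to 9.74% of counts in 6 libraries (control MPP 2, Jak2V617F HSC 2, Jak2V617F MPP 1 and 2, double-mutant HSC 1 and double-mutant MPP 1) and 0.56% to 1.28% in the other 6, with at most 0.0184% in the Vav-Cre cohort. Smooth muscle genes took 0.149% to 0.223% against 0.0123% to 0.0314%, and stromal and endothelial genes 0.341% to 0.491% against 0.0471% to 0.0820%.

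This split ran through every genotype and moved with several of the 41 genes. For 6 genes every one of the 6 libraries high in heart genes lay above all of the other 6 (16.3% of all genes did so): Thbs1 at 122 to 173 CPM against 13.3 to 45.9 CPM, Pdgfb at 44.8 to 66.5 CPM against 3.96 to 15.5 CPM, Pdgfa, another platelet-derived growth factor gene, at 10.7 to 32.2 CPM against 1.45 to 4.84 CPM, Myl9 at 12.1 to 26.9 CPM against 1.11 to 5.48 CPM, Mylk, the myosin light chain kinase, at 32.3 to 63.6 CPM against 6.27 to 30.1 CPM, and the ADP receptor gene P2ry1 at 27.9 to 43.9 CPM against 11.3 to 21.7 CPM. Smooth muscle and endothelial cells are also known to express Thbs1, Pdgfa, Pdgfb, Myl9 and Mylk. For 4 genes the order was the opposite (9.96% of all genes): Fermt3 at 151 to 332 CPM against 583 to 1207 CPM, Ptgs1, the cyclooxygenase of platelets, at 41.8 to 107 CPM against 117 to 345 CPM, Gp1ba, the binding subunit of the von Willebrand factor receptor, at 1.59 to 9.74 CPM against 11.3 to 40.2 CPM, and the adaptor gene Dok2 at 15.7 to 53.6 CPM against 78.5 to 167 CPM. Both counts were close to the shares of all genes, so the split did not single out the 41 genes as a set. These 10 genes moved with it and are therefore given without a reading of genotype.

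All 41 genes passed the low-count filter here, among 19616 tested. No member, and no gene of the whole table (0.0% in each), was called by edgeR in any of the 9 comparisons of groups or the 2 tests of a difference between populations. With 2 libraries a group the values below are descriptions unless another setting is named. The 41 genes summed to 1351 to 2840 CPM in the 8 control and Jak2V617F libraries, to 2541 and 6431 CPM in double-mutant HSC and to 1465 and 2066 CPM in double-mutant MPP.

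**Figure D4:**
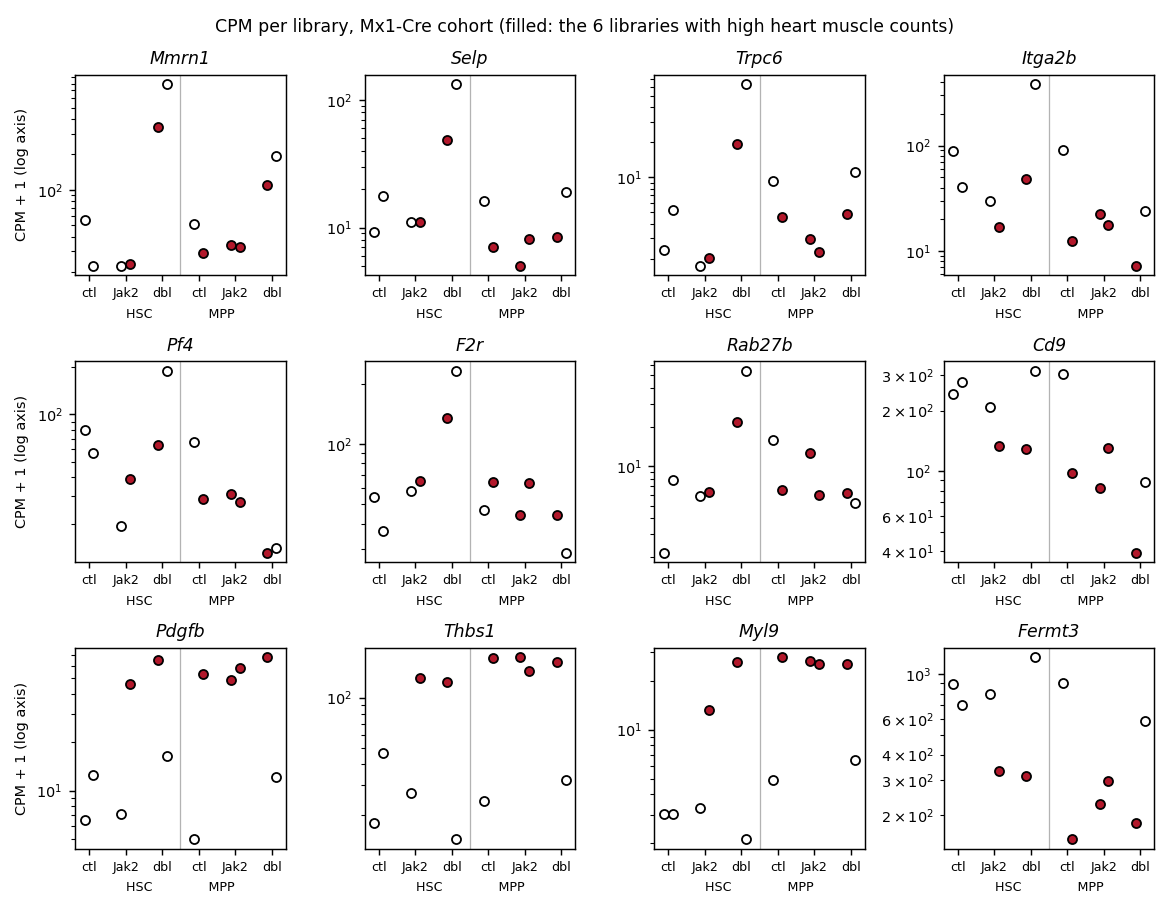
CPM + 1 on a log axis of 12 genes in each Mx1-Cre library; filled points are the 6 libraries with 6.38% to 9.74% of counts from heart muscle genes, open points the other 6. Mmrn1 and Selp are highest in both double-mutant HSC libraries, whereas Thbs1 and Pdgfb follow the filled points in every genotype.

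The most abundant gene of each role, per length, showed how uneven the libraries of a group were. Values are given for replicates 1 and 2. Gp9, the leading adhesion receptor, stood at 20.7 and 11.5 CPM in control HSC, 16.5 and 4.10 CPM in control MPP, 11.0 and 6.92 CPM in Jak2V617F HSC, 4.44 and 3.90 CPM in Jak2V617F MPP, 15.4 and 85.9 CPM in double-mutant HSC and 7.49 and 39.7 CPM in double-mutant MPP. Ptgs1 stood at 117 and 188, 139 and 41.8, 142 and 94.8, 49.1 and 65.1, 107 and 345, and 64.4 and 125 CPM in the same order of groups. For both genes the lower double-mutant library of each population was the one high in heart genes.

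Rgs18, the leading signalling gene, stood at 428 and 435 CPM in control HSC, 481 and 181 CPM in control MPP, 256 and 236 CPM in Jak2V617F HSC, 138 and 186 CPM in Jak2V617F MPP, 468 and 958 CPM in double-mutant HSC and 226 and 452 CPM in double-mutant MPP. Fermt3 stood at 893 and 705, 901 and 151, 793 and 332, 227 and 295, 313 and 1207, and 182 and 583 CPM in that order. F2r, the leading agonist receptor, was more even, at 53.3 and 35.8, 45.9 and 63.2, 57.1 and 63.9, 43.0 and 62.7, 134 and 232, and 43.2 and 27.6 CPM, and was highest in the double-mutant HSC libraries. Pf4, the leading granule gene, was at 30.1 and 26.6 CPM in Jak2V617F MPP, and its other groups are given with the comparisons.

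Double-mutant HSC held more RNA of many of the genes than Jak2V617F HSC. The median log2 fold change over the 41 was 1.12 against -0.01 for all genes, 35 values were positive, and 13 of the 41 passed at an unadjusted p under 0.05 (4.68% of all genes did). DESeq2 called 5 (1.11% of all genes). With 1 library left out the median ran from 0.90 to 2.14. The libraries did not overlap for 20 genes, 19 of them higher, where 28.1% of all genes did not overlap. Mmrn1 stood at 338 and 797 CPM in the double mutant and at 21.6 and 22.5 CPM in Jak2V617F HSC (4.38, SE 0.71, adjusted p = 0.202). Trpc6 stood at 18.3 and 62.9 CPM against 0.742 and 1.03 CPM (5.19, SE 1.10, adjusted p = 0.202), and Selp at 47.8 and 133 CPM against 10.1 and 10.0 CPM (2.85, SE 0.77, adjusted p = 0.293). Each of these genes was higher in both double-mutant libraries than in either Jak2V617F library.

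The double-mutant HSC libraries themselves differed. Replicate 2, which is low in heart genes, held 386 CPM of Itga2b against 47.1 CPM in replicate 1, 217 against 25.0 CPM of Itgb3, 85.9 against 15.4 CPM of Gp9 and 39.9 against 2.01 CPM of Treml1. Compared 1 library with 1 library within each set of libraries of the heart gene split, 10 of the 36 genes with more than 3 counts were over 2-fold higher in the double mutant in both sets (3.94% of all genes). Mmrn1 was 14.9-fold higher where heart genes were high and 26.1-fold higher where they were low, Trpc6 17.7-fold and 60.2-fold, and Selp 4.75-fold and 9.39-fold. Itga2b, Gp9, Rab27b, Gng11, F2r, F2rl3 and Lat were the others. F5 was lower in both, at 0.407 and 0.317 of the Jak2V617F level. With the heart gene split as a term in the fit, edgeR called 11 of the 41 genes, all higher (2.75% of all genes called): Mmrn1 (4.28, adjusted p = 1.21e-06), Trpc6 (4.95, adjusted p = 0.000355), Selp (2.69, adjusted p = 0.00160), and Gng11, Lat, Itga2b, Nrgn, Cavin2, Rgs18, Pf4 and F2r. Without double-mutant HSC 1, and with no such term, the median log2 fold change was 1.41 for the 41 and -0.20 for all genes.

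Against control HSC, which do not serve in the comparison above, the double-mutant libraries gave a median of 1.27 for the 41 and 0.11 for all genes, 8 genes passed at an unadjusted p under 0.05 (6.37% of all genes did), and DESeq2 called 4 (1.41% of all genes). With 1 library left out the median ran from 0.57 (without double-mutant HSC 2) to 1.73. Non-overlap held for 16 genes, 14 of them higher (37.5% of all genes). Mmrn1, at 54.8 and 21.7 CPM in control HSC, was at 3.45 (SE 0.68, adjusted p = 0.0730), and Trpc6, at 1.37 and 4.24 CPM, was at 3.49 (SE 1.01, adjusted p = 0.286). With the heart gene term 5 genes were called, all higher (2.34% of all genes called): Mmrn1 (3.74, adjusted p = 6.19e-06), Trpc6, Selp, F2r and Rab27b. The double-mutant libraries are the same as in the comparison with Jak2V617F.

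Within the double mutant the genes were lower in MPP than in HSC. The median log2 fold change was -1.16 against 0.02 for all genes, 36 of 41 values were negative, among them all 10 adhesion receptors and all 8 signalling genes, and 15 genes passed at an unadjusted p under 0.05 (1.62% of all genes did). DESeq2 called 2 (0.109% of all genes), the median ran from -1.88 to -0.83 with 1 library left out, and 18 genes did not overlap, 17 of them lower (19.0% of all genes). Pf4 stood at 63.2 and 189.7 CPM in HSC and at 12.1 and 13.1 CPM in MPP (-3.18, SE 0.66, adjusted p = 0.908). F2r stood at 134 and 232 CPM against 43.2 and 27.6 CPM (-2.25, SE 0.52), Selp at 47.8 and 133 CPM against 7.39 and 18.1 CPM, and Mmrn1 at 338 and 797 CPM against 109.7 and 193 CPM. None of these 4 genes overlapped. With the heart gene term 9 were called, all lower (0.214% of all genes called): F2r (-2.27, adjusted p = 0.00122), Pf4 (-3.08, adjusted p = 0.00250), Selp (-2.71, adjusted p = 0.00664), Itga2b (-3.44, adjusted p = 0.00664), Mmrn1 (-1.76, adjusted p = 0.0405), F5, Cd9, Plek and F2rl2. All 16 erythroid markers were positive in this comparison (median 4.24), and their part was not tested.

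In MPP the genes of the double mutant lay on both sides of the other genotypes. Against Jak2V617F MPP the median was -0.10 (-0.04 for all genes), 3 genes passed at an unadjusted p under 0.05 (3.0% of all genes did) and DESeq2 called none. The median was 0.17 (0.00 for all genes) with the heart gene term and ran from -0.36 to 0.19 with 1 library left out. Mmrn1 stood at 109.7 and 193 CPM against 32.8 and 31.7 CPM (2.15, SE 0.64) and F5 at 0.663 and 4.58 CPM against 18.4 and 16.2 CPM (-2.83, SE 0.97). Neither gene overlapped, where 22 of the 41 and 32.3% of all genes did not. Against control MPP the median was -0.31 (-0.04 for all genes), 7 passed unadjusted (4.71% of all genes did), DESeq2 called 2 (0.779% of all genes) and 15 did not overlap (21.0% of all genes). The median was -0.12 (0.02 for all genes) with the heart gene term and ran from -0.76 to 0.25 with 1 library left out. F5 stood at 45.0 and 11.2 CPM in control MPP (-3.71, SE 1.00, adjusted p = 0.393) and Pf4 at 65.2 and 27.9 CPM (-2.12, SE 0.63, adjusted p = 0.559). With the heart gene term, Mmrn1 was called higher and F5 and Cd9 lower against Jak2V617F MPP (0.591% of all genes called). Against control MPP it called Mmrn1 higher and F5, Pf4, Cd9, Plek and F2rl2 lower (1.58% of all genes called).

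Jak2V617F alone was compared with control. In HSC the median was -0.35 for the 41 and 0.09 for all genes, and 2 genes passed at an unadjusted p under 0.05 (1.52% of all genes did). With the heart gene term the median was -0.11, against -0.09 for all genes, and leaving out 1 library moved it between -0.70 (without Jak2V617F HSC 1) and -0.04 (without control HSC 2). Pf4 stood at 18.5 and 37.6 CPM in Jak2V617F and 78.8 and 55.4 CPM in control HSC (-1.39, SE 0.62), and F2rl3 at 1.05 and 5.30 CPM against 17.1 and 8.33 CPM (-2.18, SE 1.00). Both were lower in each Jak2V617F library, as were 9 of the 41 genes, while 3 were higher (26.5% of all genes did not overlap). In MPP, where both Jak2V617F libraries but 1 of the 2 control libraries were high in heart genes, the median was -0.83 against -0.02. It was -0.17 against 0.02 with the heart gene term, and leaving out 1 library moved it between -1.38 (without control MPP 2) and -0.02 (without control MPP 1). At an unadjusted p under 0.05, 1 gene passed (1.35% of all genes did), and 8 did not overlap (24.2% of all genes). Trpc6 stood at 1.93 and 1.30 CPM in Jak2V617F and 8.35 and 3.56 CPM in control MPP (-2.04, SE 0.97), and Dok2, which moved with the heart gene split, was at -1.67 (SE 0.76). DESeq2 called no member in either comparison.

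Between MPP and HSC of the same genotype, control mice of this cohort gave 0 genes at an unadjusted p under 0.05 (2.67% of all genes did) and a median of -0.05 against 0.05, which was 0.09 against -0.17 with the heart gene term and ran from -1.24 to 0.31 with 1 library left out. The smallest p belonged to Myl9 (2.78, SE 1.36) and Cavin2 (1.54, SE 0.84). Of the 41, 2 did not overlap, where 24.0% of all genes did not. Jak2V617F mice gave 2 genes unadjusted (1.08% of all genes did), a median of -0.19 against -0.01 (-0.02 against -0.04 with the heart gene term, and -0.35 to 0.27 with 1 library left out), and 26 genes without overlap (45.6% of all genes), with Dok2 at -1.73 (SE 0.76) and Gp1bb at 0 counts in both MPP libraries. DESeq2 called none in either. Cavin2, which separated HSC from MPP in every Vav-Cre library, did not do so here, with 27.3 and 33.3 CPM in control HSC and 25.4 and 167 CPM in control MPP. The higher of the control MPP values belongs to a library high in heart genes, and Cavin2 was at 95.8 to 167 CPM in those 6 libraries and at 23.6 to 149 CPM in the other 6. The control HSC libraries here also held little Slamf1 and Procr, as given above. Granulocyte and monocyte markers took 7.67% and 8.21% of their counts, against 0.129% to 0.929% in Vav-Cre HSC. Whether HSC of the cohorts can be compared was not tested.

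The tests of a difference between populations called no gene by edgeR (0.0% of all genes). For the effect of Jak2V617F none of the 41 passed at an unadjusted p under 0.05 (1.52% of all genes did), with Clec1b at -3.25 (SE 2.08) and F2rl3 at 2.11 (SE 1.37), and for the effect of adding Jarid2KO to Jak2V617F 7 did (2.44% of all genes did), led by Pf4 at -3.12 (SE 0.88) and F2r at -1.95 (SE 0.71), both with an adjusted p of 1.00. DESeq2 called no member in either.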

How the data were processed

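RNA-seq was made from sorted cells of pooled mice with a SMARTer Ultra Low kit, per the labels' protocols. The authors deposited 1 table of gene counts for each library, with CPM and RPKM columns beside the counts per the file headers. STAR 2.0.4, Subread, featureCounts 1.4.5, HTSeq 0.8.0, Partek 6.6 and the mm10 build are named in the submitters' processing notes. Strand marking is not given in the sources used here, so genes that overlap on either strand (Gp1bb with Sept5 and Clec1b with Clec9a on the same strand, and Pdgfa, Selp, Thbs1, F5, Plek, Fermt3, Cd9 and Zyx with genes on the opposite strand) are uncertain. The CPM printed were recomputed from the deposited counts over all genes of a library. RPKM are the authors' deposited values and serve only for levels between genes. H3K27me3 ChIP samples of the series were not analysed here.

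Each cohort was fitted on its own with edgeR 4.0.16 (R 4.3.3): filterByExpr (at least 10 counts, 15 in total), TMM factors, 1 coefficient per group, quasi-likelihood tests and Benjamini-Hochberg adjustment over all genes kept, with a call at an adjusted p under 0.05. SE are the log2 fold change over the square root of F. The code was tested on simulated data. Tables and figures used Python 3.11.15, pandas 2.3.3, numpy 2.4.6 and matplotlib 3.10.9. All members are counted. Those called in a comparison are named there, or the 2 of smallest p where fewer than 2 were called, and values of every library are given for members called in any comparison of a cohort and for the member of highest RPKM in a role with none called. Other members named were chosen after their values were seen. Members, lists and tests were chosen with earlier results of these data known. Alternatives were no low-count filter, the size factors of DESeq2 in edgeR, DESeq2 1.42.0 itself and a replicate block. The block was the replicate number between genotypes, and genotype and number together for MPP against HSC. Further alternatives were only the groups compared, a heart gene term (libraries over 4% against the rest, Mx1-Cre cohort) and leaving out each library. The main fit did not pair libraries by replicate number, and whether the numbers mark pairs is not known.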

Additional observations from a re-analysis of the deposited data

Results flagged for a closer look

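In the Mx1-Cre cohort 4 of the 41 genes moved in opposite directions in HSC and MPP when the double mutant was compared with Jak2V617F. Within each population the scaled values of the double mutant and of Jak2V617F did not overlap (2.89% of all genes did so). The log2 fold changes were 1.12 in HSC and -1.01 in MPP for Cavin2, 1.31 and -0.64 for F2r, 1.88 and -1.24 for Pf4, and 4.85 and -0.96 for Treml1. The difference itself was tested as an interaction, and none of the 4 was called (adjusted p = 1.00 for each). Against control libraries 4 genes did so, F2r among them again (2.27% of all genes): Clec1b at 1.61 in HSC and -4.54 in MPP, F2r at 1.64 and -0.80, Gp5 at 2.72 and -3.21, and Rab27b at 2.88 and -1.37. That difference was not tested. Each comparison has 2 libraries a group, the double-mutant libraries are shared by both, and Clec1b, Gp5 and Treml1 have low counts. Treml1 had 2 counts in Jak2V617F HSC 2 and 5 and 6 in double-mutant MPP. The heart gene split also crosses these groups. Cavin2 stood at 23.6 CPM in Jak2V617F HSC 1, low in heart genes, and at 95.8, 138 and 145 CPM in the Jak2V617F libraries high in them. In the double mutant its high and low libraries held 147 and 149 CPM in HSC and 116 and 29.8 CPM in MPP.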

How the results depend on the processing

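Of 169 recomputed results other than those reported, 131 kept their count of members called and 38 moved. A count was kept if it was 0 both times, or above 0 both times and within 1.5 times. Direction and size of the fold changes were not part of this rule. Counts below are members called. Shares in parentheses are of all genes. Without the low-count filter they were 3 (2.55%) for Jarid2-KO in HSC, 7 (4.02%) in MPP, 1 (0.228%) for the difference of these effects and 10 (1.73%) for MPP against HSC in Jarid2-KO, and in the Mx1-Cre cohort 2 (0.144%) for double-mutant MPP against HSC, 4 (0.827%) for the double mutant against Jak2V617F HSC, 1 (1.03%) against control HSC and 2 (0.606%) against control MPP. DESeq2 gave 4 (1.98%), 9 (3.44%) and 9 (1.26%) for Jarid2-KO in HSC, in MPP and between populations, and 2 (0.109%), 5 (1.11%), 4 (1.41%) and 2 (0.779%) for the same 4 Mx1-Cre comparisons. With only the groups compared the counts were 1 (2.02%) for Jarid2-KO in HSC and 0 (0.129%) in MPP. The heart gene term gave 9 (0.214%), 11 (2.75%), 5 (2.34%) and 6 (1.58%) for those 4 comparisons and 3 (0.591%) for double-mutant against Jak2V617F MPP. Leaving out 1 library gave 1 to 4 in control MPP against HSC, among 61 to 102 genes in all. It gave 2 to 5 in Jarid2-KO MPP against HSC, among 36 to 180 genes. For Jarid2-KO in MPP it gave 0 to 10, among 34 to 1512 genes. In the Mx1-Cre cohort it leaves 1 library in a group, so no counts are given there. The cause of these moves was not tested.

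With a block in the fit, 11 members (1.06% of all genes) were called in control MPP against HSC and 4 (0.487%) in Jarid2-KO MPP against HSC. Here the block was genotype and replicate number together, which pairs HSC and MPP libraries of a genotype. With the replicate number alone as a block, 0 (0.284%) were called for Jarid2-KO in HSC and 0 (0.67%) in MPP (Thbs1 was lost). The difference of these effects, blocked by genotype and number, gave 0 (0.0%). Each Mx1-Cre comparison gave 0 (at most 0.0051%). Deviations of same-numbered libraries correlated at -0.0004 to 0.29 between HSC and MPP and -0.234 to 0.114 between genotypes in the Vav-Cre cohort. In the Mx1-Cre cohort they did so at -0.0018 to 0.465 and -0.436 to 0.0723. With 2 libraries a group, both replicates of an Mx1-Cre comparison give the same value. These correlations do not settle whether same-numbered HSC and MPP libraries share a pool. A crossed pairing, chosen after seeing the data, called 0 members (0.0% of all genes) for the double mutant against Jak2V617F HSC. Against control MPP it called 0 (0.0204%). With so few genes called at all, these counts do not bear on the pairing.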

Other observations

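A list of 40 other platelet pathway genes showed where else HSC and MPP of the Vav-Cre cohort differed. In control mice 2 of the 40 fell in MPP and 1 rose, where 0.657% of all genes were called lower and 0.512% higher. Vwf, which encodes von Willebrand factor and is used to mark platelet-biased stem cells, stood at 69.8 to 90.1 CPM in the 6 HSC libraries and 8.50 to 17.0 CPM in the 6 MPP libraries, and fell by 2.51 (log2, SE 0.23, adjusted p = 9.3e-05). Clu, the secreted chaperone clusterin found in platelet granules, stood at 20.8 to 68.9 CPM and 0.441 to 2.39 CPM in these and fell by 4.56 (SE 0.39, adjusted p = 9.3e-05). Slc35d3, needed for dense granules in mouse platelets, rose by 2.04 (SE 0.41, adjusted p = 0.0245). In Jarid2-KO mice Vwf fell by 2.74 (SE 0.23, adjusted p = 6.6e-05) and Clu by 5.18 (SE 0.40, adjusted p = 4.1e-05), while Slc35d3, at 1.73 (adjusted p = 0.0834), did not pass, and 0.525% of all genes were called. The medians of the list were -0.13 in both, close to the -0.02 and 0.05 of all genes.

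Between Jarid2-KO and control, Cd84, a SLAM family receptor of platelets and leukocytes, was the 1 gene of the 40 called in MPP (0.948% of all genes). It fell by 1.01 (SE 0.22, adjusted p = 0.0439). In HSC edgeR called none of the 40, 8 passed at an unadjusted p under 0.05 (17.0% of all genes did), and Clu was at 1.38 (adjusted p = 0.0818). Of 14 megakaryocyte transcription factor genes none was called by edgeR in any comparison of either cohort. At an unadjusted p under 0.05, 0 to 3 of them passed, where 1.08% to 19.3% of all genes did, depending on the comparison.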
